A study of Morone chrysops x Morone saxatilis with 6 samples.

Results

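In the liver of hybrid striped bass, which are bred from white bass and striped bass, 161 of 38047 coding sequences were selected because their level in the pools of small fish stood well above their level in the pools of large fish. The study crossed white bass of generation 8 with striped bass of generation 4 of domesticated lines, and grew 5632 tagged fingerlings from 44 half-sib families together in 4 ponds for 115 days. At harvest, liver RNA of fish at either end of the size range was pooled in equal amounts, so that each library represents several animals. There were 3 libraries from large and 3 from small fish, all hybrids of the same crossing scheme from the same communal ponds as far as the labels say, with no other treatment named. How many fish went into a pool, and of which sex and family, is not stated by the labels. They name the libraries biological replicates but do not describe how fish were allotted to pools, so any spread between libraries is that between these pools.

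The selection used the measured values. Levels were expressed as counts relative to the library total (CPM), and the 100 coding sequences of highest mean CPM were left out, of which 0 met the ratio that follows. Of the rest, 21679 had a mean of 1 CPM or more over the small libraries. Members were those whose lowest small library was at least 1.5 times their highest large library, which gave 161, or 0.743% of the 21679. The limit of 300 set by the rule was not reached. Without the factor of 1.5, the lowest small library was above the highest large library in 3.2% of the 21679. The difference between small and large fish in the members is therefore the rule itself, and is described here without a test. The rows carry a running number and no gene name, so that no member can be given a function, no list of genes can be counted, and the tissue cannot be checked against liver markers.

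The liver of a fish makes most plasma proteins and bile, and stores glycogen and lipid. It also answers growth hormone by releasing insulin-like growth factor 1 into the blood, which drives body growth. Its transcripts are thus a usual place to look for differences between fast- and slow-growing fish. In RNA from whole tissue, a lower level can come from fewer cells of a type or from less RNA per cell, and these cannot be told apart here.

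The members were low in abundance with few exceptions. Their mean over the small libraries had a median of 2.37 CPM, with quartiles of 1.38 and 5.07 CPM and a range from just above 1 to 2190 CPM, against a median of 6.55 CPM for all 21679 coding sequences of 1 CPM or more. Of the 161, 72 lay between 1 and 2 CPM, 48 between 2 and 5, 18 between 5 and 10, 19 between 10 and 50 and 4 above 50 CPM. In the large libraries their median of the group mean was 0.41 CPM. The libraries held 2434421 to 19625891 counts, with the deepest in the large and the shallowest in the small group. A single count was worth 0.051 CPM in large library 3 and 0.411 CPM in small library 2. Where no count was seen, up to 3 counts are allowed, or 0.153 CPM in the first and 1.23 CPM in the second of these.

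**Figure D1:**
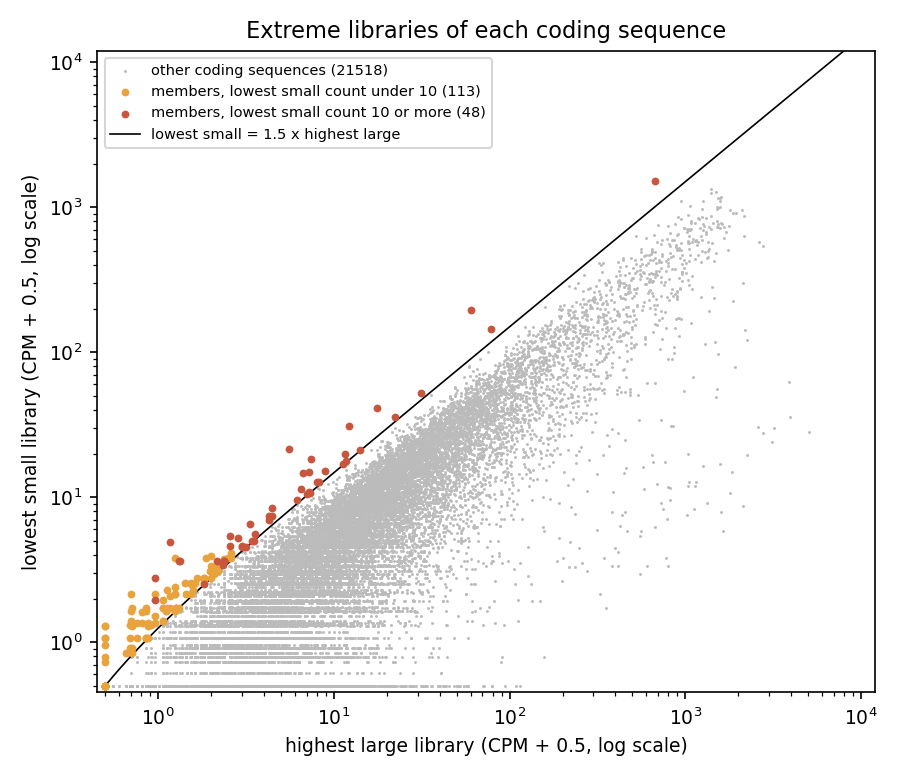
Each point is a coding sequence with a mean of 1 CPM or more in the small libraries, placed by its highest large library (horizontal, CPM + 0.5) and its lowest small library (vertical, CPM + 0.5), both on log scales. The 161 members lie on or above the black line, with the 32 that are at 0 in all large and in at least 1 small library together at its lower end, and 113 members (orange) have a lowest small count under 10 and 48 (red) have 10 or more.

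A higher level in every small pool was seen for 129 members and not for all 161. The other 32 had 0 counts in all 3 large libraries and also in at least 1 small library, 23 of them in exactly 1 and 9 of them in 2. They met the rule because 0 is 1.5 times 0. In those small libraries they had no count, as in the large ones, so a difference there was not resolved. In all, 39 members had no count in any large library, and 7 of these were above 0 in every small library. Among these 7 the counts per small library ran from 1 to 23, and the sums over the small libraries from 10 to 26. Over all 39, the summed counts in the small libraries ran from 9 to 89, with a median of 16. Set against the limit of 3 counts over the summed large libraries (0.101 CPM), their summed small counts stood 6.02-fold to 59.5-fold higher. These bounds allow for the 0 counts in the large libraries only, and leave out counting error in the small ones. The member at 59.5-fold had 88, 0 and 1 counts in small libraries 1, 2 and 3, so its value rests almost wholly on small library 1.

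Few counts stood behind most members. The lowest small library held 3 counts or fewer in 67 members and 10 counts or more in 48. Exact 95% Poisson intervals, which cover counting error only, were clear of each other between every small and every large library in 15 members. They overlapped in 146. The rule itself asks for separated groups, and the share over other coding sequences was not computed. The count of 15 therefore describes counting depth and is no result about the members. The 15 members had a median small mean of 30.7 CPM, against 2.01 CPM for the other 146. The 15 included the 8 most abundant members and ran from 3.99 to 2190 CPM in the small group. Their log2 ratio of small to large means, with 0.5 CPM added to each mean, ran from 1.36 to 3.29 with a median of 2.64.

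**Figure D2:**
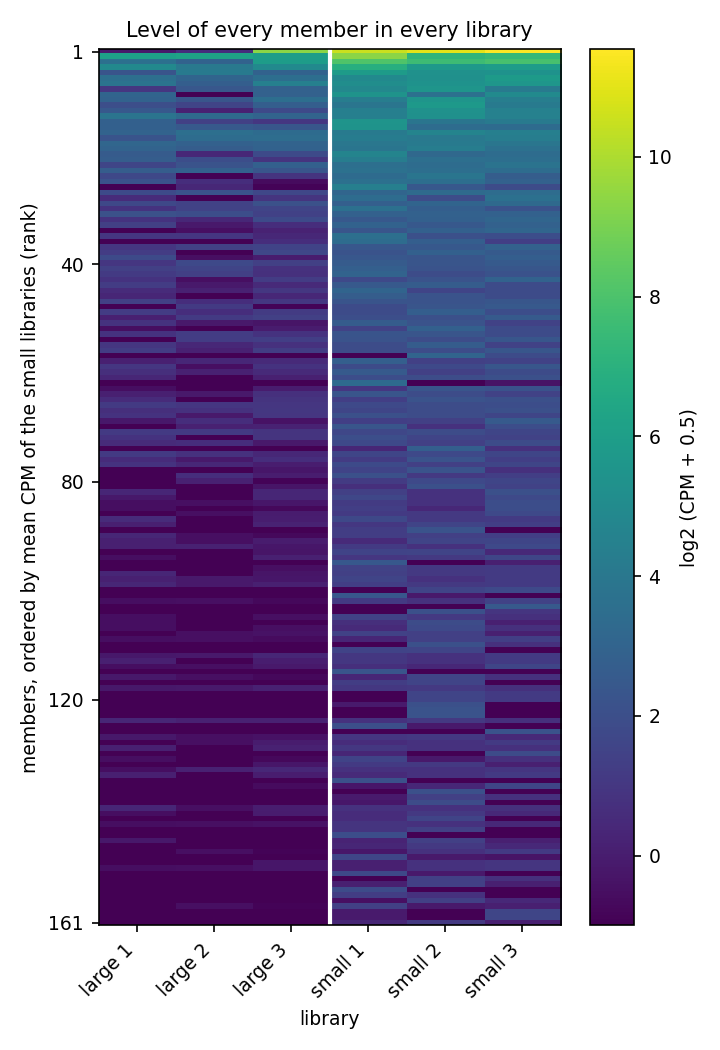
Each line is 1 of the 161 members, ordered from the highest (rank 1) to the lowest mean CPM of the small libraries, and each column is a library. Colour gives log2 (CPM + 0.5). The brightest lines at the top are the most abundant members, and the darkest cells on the small side mark members at or near 0 CPM in a small library.

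Across all 161 members the log2 ratio of small to large means had a median of 1.66 and ran from 0.66 to 3.68, with 0.5 CPM added to each mean. Of the members, 153 lay above 1 and 38 above 2 on this log2 scale. The same median was 0.06 over the 18135 coding sequences with enough counts to be tested. Without an added value, and with members at 0 in all large libraries set to their bound, the median ratio was 5.95-fold (log2 2.57). Among the 122 members with a count in a large library, the lowest small library stood a median 1.87 times above the highest large one, up to 8.06 times. It was below 2 times in 73 of them, at 2 times or more in 49 and at 3 times or more in 20.

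The 5 members nearest to the threshold had ratios of 1.505 to 1.526, and the 5 coding sequences just below it had ratios of 1.493 to 1.499. The lowest small library of these 5 members lay between 1.23 and 20.6 CPM, and that of the 5 sequences below the threshold between 1.15 and 9.67 CPM. From a ratio of 1.4 to 1.5 there were 30 coding sequences, and from 1.5 to 1.6 there were 26, so the threshold falls within a continuous range of ratios.

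The most abundant member, HSB_liver_CDS_33970, was lower in every large library than in any small one, but by very unequal amounts. Its level was 0.375, 1.05 and 668 CPM in large libraries 1, 2 and 3 (2, 5 and 13110 counts) and 1507, 2082 and 2980 CPM in small libraries 1, 2 and 3 (13398, 5069 and 10407 counts). It was thus near 0 in large libraries 1 and 2, while large library 3 came within a factor of 2.26 of the lowest small library. The large group had a mean of 223 ± 385 CPM (SD, n = 3), and the mean of the small group was 2190 ± 743 CPM (SD, n = 3). With 0.5 CPM added to each mean the log2 ratio was 3.29, and it was 10.8 without large library 3. This 1 transcript also made up much of the members' sum in the small group.

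Separation was ranked by the lowest small over the highest large library, with 0.5 CPM added to each. The member of widest separation on this scale, HSB_liver_CDS_34672 (4.20 times), was below 1 CPM in every large library and above 4 CPM in every small one. It stood at 0, 0.209 and 0.662 CPM in the large libraries (0, 1 and 13 counts) and at 4.39, 6.57 and 8.02 CPM in the small ones (39, 16 and 28 counts). Without the added value the lowest small library was 6.62 times the highest large one, which was not the largest such ratio among members (8.06 times). The large group had a mean of 0.290 ± 0.339 CPM (SD, n = 3), and the small group averaged 6.33 ± 1.83 CPM (SD, n = 3). With 0.5 CPM added to each mean their log2 ratio was 3.11, and it was 4.04 with 0.1 CPM and 2.51 with 1 CPM added, since the large group is near 0. Within replicate numbers 1, 2 and 3 the log2 ratio, with 0.5 CPM added, was 3.29, 3.32 and 2.87. The counting interval of the lowest small library, 3.12 to 5.995 CPM, was clear of the highest upper bound among the large libraries, 1.16 CPM. As this row was picked for its separation, the clear intervals describe counting depth only and carry no test.

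Summed over all members, the large libraries held 323, 272 and 1043 CPM and the small libraries 3447, 3367 and 4214 CPM in the order of their numbers. Without HSB_liver_CDS_33970 the sums were 323, 271 and 375 CPM in the large and 1941, 1285 and 1233 CPM in the small libraries. Large library 3 thus stood apart through that transcript, and small library 1 was then the highest. Of the 161 members, 102, 88 and 120 had a count in large libraries 1, 2 and 3, and 149, 150 and 143 in the small libraries. The number detected in the large group was lowest in large library 2 and highest in large library 3, which were also the shallowest and the deepest of that group.

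No single library set the threshold for most members. Among the 122 members with a count in the large group, the highest large library was number 3 in 57, number 1 in 45 and number 2 in 20. Among the 129 members above 0 in every small library, the lowest was number 1 in 47, number 2 in 44 and number 3 in 38. In the 48 members with at least 10 counts in every small library, the highest small library was number 1 in 17, number 2 in 17 and number 3 in 14. In these 48, the highest small library was a median 1.81 times the lowest, from 1.02 to 6.68 times, and under 2 times in 32.

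The size of the difference varied with the replicate number. The libraries are numbered 1 to 3 in each group, and the meaning of a number is not stated by the labels. Libraries of equal number deviated alike for numbers 1 and 3, with correlations of 0.72 and 0.59. For number 2 the correlation was 0.19, no higher than the 0.20 between large library 3 and small library 2. The log2 ratio of the small to the large library of the same number, with 0.5 CPM added to each, had a median over the members of 1.38 for number 1, 1.79 for number 2 and 1.23 for number 3. Over the 18135 tested coding sequences the medians were -0.06, 0.13 and 0.08 in the same order. The ratio was largest within number 2 in 81 of 161 members, and in 24 of the 48 with 10 counts or more in every small library. Number 2 also gave the largest ratio in 42.2% of all tested coding sequences. Number 2 pairs the large library of fewest counts with the shallowest small library (4783800 and 2434421 counts), and the part of depth in this was not tested. The ratio was above 0 within all 3 numbers in 129 members and was 0 within a number in the other 32.

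Differences between the replicate numbers were rare among the members that could be tested. With growth group in the model, edgeR's quasi-likelihood test found 2631 of 18135 coding sequences (14.5%) different between numbers at a Benjamini-Hochberg adjusted p under 0.05. Of the 71 members that passed the filter on low counts, 1 (1.41%) was called. The other 90 members were not tested. At an unadjusted p under 0.05 there were 2 of the 71 members, against 35.4% of all tested coding sequences. The rule asks that the groups do not overlap, which limits how far a member can differ between numbers, so this low share cannot be told apart from the selection. Without large library 3, 0 coding sequences and 0 of 82 members were called. Without large library 1, small library 1 or small library 3 there were 312 (1.68%), 125 (0.675%) and 78 (0.393%) calls in all. Of the members tested, 0 of 82, 0 of 71 and 1 of 78 (1.28%) were among them. Of the variation in log2 CPM not taken by growth group, replicate number held 54.5% in the 71 members and 77.5% over all tested coding sequences, where its share of the degrees of freedom is 50%. The selection limits this value in the same way. The share of all coding sequences called between numbers fell far less when a library numbered 2 was left out than when one numbered 1 or 3 was. Each of these fits leaves a single library of the number concerned.

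The 1 member called between numbers was HSB_liver_CDS_30999 (edgeR adjusted p = 0.0368). It stood at 6.76, 2.09 and 1.48 CPM in the large libraries numbered 1, 2 and 3 and at 44.0, 14.4 and 16.9 CPM in the small ones. Both libraries numbered 1 were the highest of their group. All small libraries were above all large ones, and the log2 ratio of the means, with 0.5 CPM added to each, was 2.70.

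The contrast between large and small fish across the whole table was the one the rule used, and its calls are given as a description. EdgeR without a term for the replicate number called 0 of 18135 coding sequences (0%), members included, and 52 of the 71 tested members were among the 194 (1.07%) with an unadjusted p under 0.05. With the replicate number as a block edgeR also called 0, and 55 of the 71 were among the 907 (5%) under an unadjusted 0.05. DESeq2 with the block called 26 of 17886 coding sequences as lower in large fish (0.145%), of which 15 were members. Without the block DESeq2 called 0 as lower in large fish, and its 1 call was higher in large fish.

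The running number was not used by the rule, and members lay near each other in it more often than other rows lay near members. A member stood at the next or the previous number for 8 of 161 members (4.97%), in 4 pairs, against 307 of 37886 other rows (0.81%). Within 10 numbers the shares were 20.5% of members and 7.54% of the other rows, and within 100 numbers 62.1% and 53.2%. The 37886 other rows include those under 1 CPM in the small libraries, which could not be members. Of the 142 rows chosen by the mirrored rule, higher in large fish, 5.63% had a row of their own kind at the next or previous number. Within 10 numbers this share was 12.7%, and within 100 numbers it was 57.0%. No share of other rows near the mirrored rows is given. The order that the numbers follow is not stated by the file. Estimated counts share reads between like sequences, so neighbouring rows that are near-identical copies might not be counted separately. Whether any neighbouring rows are such copies was not tested.

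The densest stretch held 6 members among 100 running numbers in a row, up to 31098, and 3 of the 8 most abundant members were in it. These 6 were singled out after their values were seen. HSB_liver_CDS_31004, the member ranked 2 by abundance, was at 67.6, 77.8 and 62.8 CPM in the large and at 653, 145 and 170 CPM in the small libraries. Its large libraries lay close together, while small library 1 stood far above the other small ones.

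HSB_liver_CDS_31055, ranked 3, showed the opposite spread. Its level was 12.0, 7.32 and 59.6 CPM in the large and 267, 196 and 236 CPM in the small libraries. The small libraries were even and large library 3 was the highest of its group, as for HSB_liver_CDS_33970. The large group averaged 26.3 ± 28.9 CPM (SD, n = 3), while the small group averaged 233 ± 35.5 CPM (SD, n = 3).

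HSB_liver_CDS_31006 and HSB_liver_CDS_31007 bear consecutive numbers. The first was at 0.939, 0 and 1.38 CPM in the large and 10.2, 3.29 and 11.7 CPM in the small libraries. The second was at 1.502, 4.81 and 6.88 CPM in the large and 28.7, 45.6 and 17.8 CPM in the small libraries. Small library 2 was the lowest small library of the first and the highest of the second, so these neighbours did not vary together within the small group. Another pair of consecutive members did keep the same order of small libraries. Its rows were at 5.40, 2.05 and 3.15 CPM and at 7.65, 2.46 and 3.15 CPM in small libraries 1, 2 and 3. The remaining pairs did not keep the same order. The other members of the stretch were HSB_liver_CDS_30999, given above, and HSB_liver_CDS_31089, at 1.31, 0.418 and 0.306 CPM in the large and 5.74, 4.11 and 2.29 CPM in the small libraries.

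**Figure D3:**
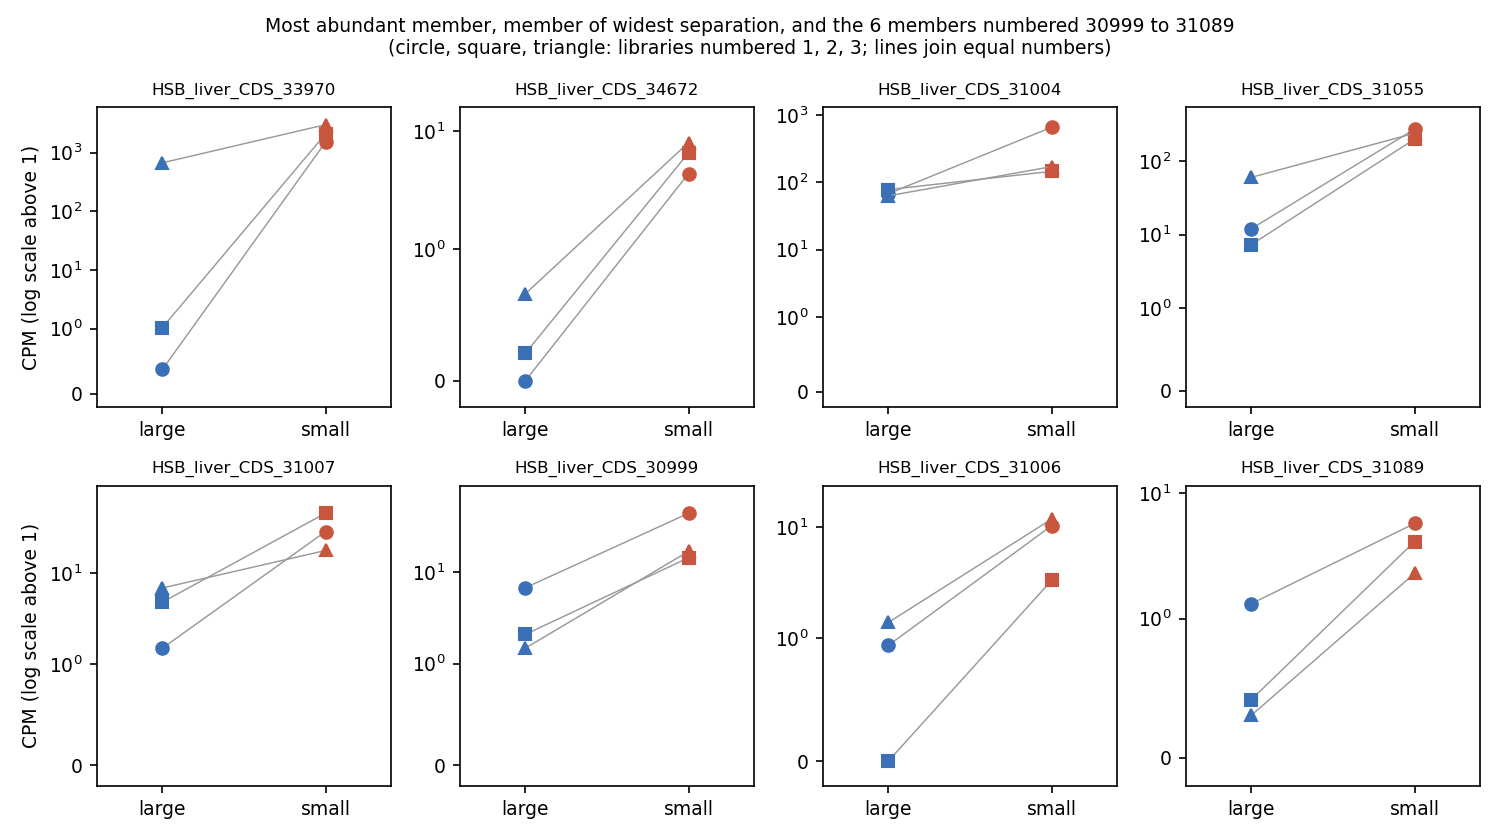
Each panel is 1 member with its large libraries (blue, left) and small libraries (red, right). The vertical axis is CPM, linear from 0 to 1 and on a log scale above 1. Circles, squares and triangles are the libraries numbered 1, 2 and 3, and lines join equal numbers. HSB_liver_CDS_33970 has large library 3 at 668 CPM and the other large libraries at 0.375 and 1.05 CPM, while HSB_liver_CDS_34672 is below 1 CPM in every large library.

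Rows of that stretch that were not members also tended to be higher in small fish. Of its 100 rows, 71 were tested and were not members, and 59 of these (83.1%) had a higher mean in the small group, against 57.2% of all 18135 tested coding sequences. Their median log2 ratio of means, with 0.5 CPM added, was 0.40, against 0.06 over all tested. Within replicate numbers 1, 2 and 3 their medians were 0.45, 0.14 and 0.40, against -0.06, 0.13 and 0.08 over all tested. The shares above 0 were 69.0%, 54.9% and 67.6%, against 44.8%, 58.3% and 56.7% of all tested. Within number 2 these rows were thus not raised beyond all tested rows. Of the 71, 23 (32.4%) were higher in small fish within all 3 numbers, against 16.6% of all tested. When the table was cut into blocks of 100 running numbers, the block from 31001 to 31100 had the second highest median of 375 blocks with at least 20 tested rows (0.42, and 0.40 over its rows that were not members), where block medians ran from -0.18 to 0.47. The stretch was chosen because it held the most members, so these values carry no test.

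**Figure D4:**
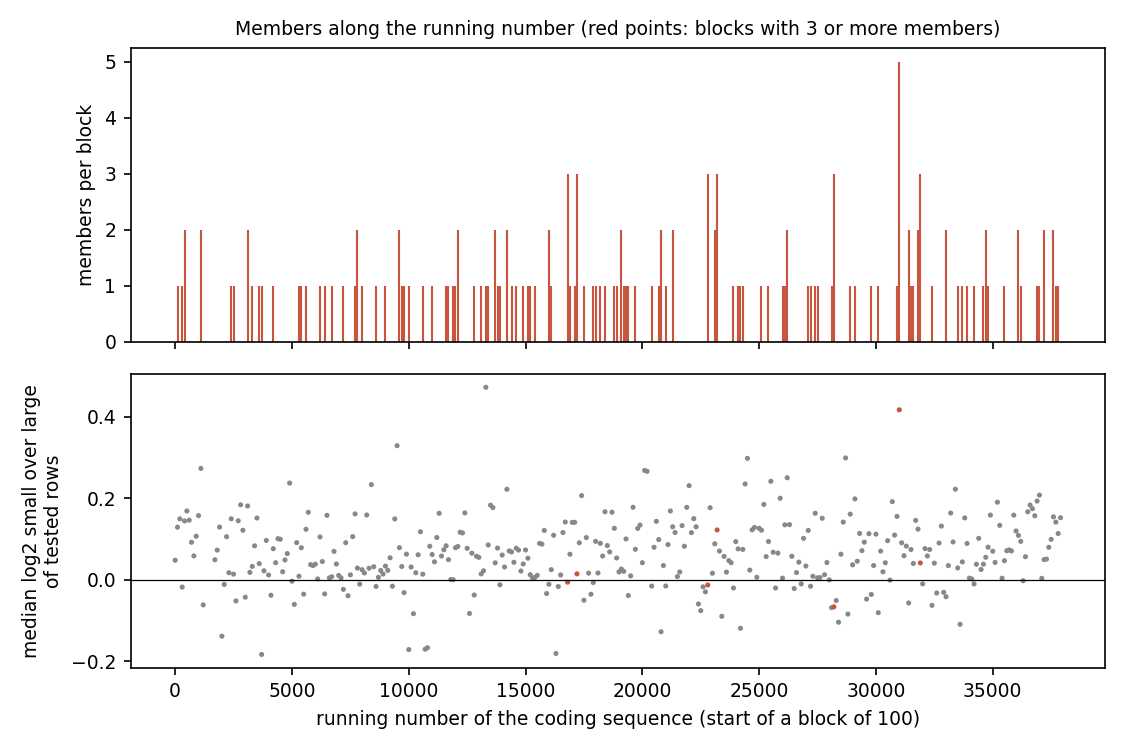
The upper panel gives the number of members in each block of 100 running numbers with at least 20 tested rows, and the lower panel the median log2 ratio of small to large means (0.5 CPM added) over the tested rows of the same block. Red points mark the 7 blocks shown that hold 3 or more members. Blocks with fewer tested rows are not shown, whatever members they hold. The block from 31001 holds 5 members and has a median of 0.42. The 6 other blocks shown with 3 or more members have medians from -0.07 to 0.12.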

How the data were processed

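Liver RNA of pooled fish was sequenced in 6 libraries, 3 large and 3 small, grouped by the growth label. The authors deposited 1 table of estimated counts per coding sequence, of which 0 were not whole numbers. None was therefore rounded here, and whether the estimates were rounded earlier is not stated in the sources used. The tools listed, per the submitters' processing notes, are eXpress 1.5.1 (which estimates counts), Bowtie2 2.3.1, DESeq2 and Trim Galore 0.4.3, with no settings or reference named in the sources used here.

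CPM is the count over the column total. The members, named rows and comparisons were chosen with earlier results of these data known. Named by rule were the most abundant member and that of widest separation. Tests on all rows used edgeR 4.0.16 (R 4.3.3), its robust quasi-likelihood fit with TMM scaling, filterByExpr (18135 kept, 19912 left out), Benjamini-Hochberg adjustment and a threshold of 0.05, with DESeq2 1.42.0 as alternative. Only the edgeR tests were tried on simulated data, and the outcome is not given here. Variation was computed on log2 CPM with a prior count of 2.

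Deviations from the group means of libraries of equal number correlated at 0.72, 0.19 and 0.59 for numbers 1, 2 and 3. All exceeded the limit of 0.1, so the numbers were taken to pair the libraries. So did 2 pairs of unequal number (0.20 and 0.11). The lowest chi-square per degree of freedom between libraries was 11.8, so none was treated as a duplicate.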

Additional observations from a re-analysis of the deposited data

How the results depend on the processing

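The number of rows past the rule was 161 with column totals and 132 to 140 with TMM, DESeq2 or upper quartile scaling, of which 130 to 138 were among the 161. It was 287, 88 and 59 with a lower ratio and with ratios of 2 and 3, and 400, 89 and 41 with a small mean of at least 0.5, 2 and 5 CPM. The 39 members at 0 in all large libraries pass any ratio. Among members with a large count, 49 and 20 had ratios of at least 2 and 3. In 1 random thinning of all libraries to 2434421 counts the number of rows past the rule was 269, of which 100 were among the 161. These 100 held 29 of the 48 members with 10 counts or more in every small library (60.4%), 71 of the other 113 (62.8%), and 13 of the 15 with clear counting intervals. Without 1 library it ran from 268 (large library 2) to 668 (large library 1), since fewer libraries must be separated. It was 48 with at least 10 counts in every small library, chosen after seeing the data. The median log2 ratio of the members was 2.41 with 0.1 CPM and 1.20 with 1 CPM added in place of 0.5, and 1.54 to 1.71 without 1 library. Between large and small fish, the count of calls was 0 in edgeR with and without the replicate block and without any 1 library, 1 in DESeq2, and 51 in DESeq2 with the replicate block. Between replicate numbers it was 5802 of 37503 (15.5%) with no filter on low counts, with 5 of 161 members (3.11%). The likelihood ratio test of DESeq2 called 3363 of 20066 (16.8%), with 3 of 78 members (3.85%). Without 1 library the calls ran from 0 to 2846 (0% to 14.1%), with 0 to 1 member (0% to 1.3%). Members with another member within 10 and 100 numbers were 33 and 100, against 8 at a distance of 1. The causes were not tested. A count of 0 allows up to 1.23 CPM in small library 2, and the part of depth in these values was not tested.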

Other observations

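The mirrored rule, which asks that the lowest large library be at least 1.5 times the highest small one, gave 142 rows. Of these, 43 (30.3%) had no count in any small library, against 39 of 161 members (24.2%) with none in any large library. The summed large libraries held 29737271 counts and the summed small libraries 14819057, so that a count of 0 reaches lower in the large group. Of the 142 rows 32.4% passed the filter on low counts, against 44.1% of the members and 47.7% of all coding sequences.

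The block of 100 running numbers with the highest median log2 ratio of small to large means began at 13301. Its 41 tested rows had a median of 0.47, and it held 1 member.

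Outside the members, 1012 rows with a mean under 1 CPM and at least 1 count in the small group also met the ratio.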
